A study of Mus musculus with 4 samples.

Results

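The p53 target genes followed here are Cdkn1a, Btg2, Ccng1, Sesn2, Mdm2, Bax, Bbc3, Phlda3, Trp53inp1 and Eda2r. They were chosen by name as direct targets of p53, with earlier results of these data known. Each matched 1 row of the deposited table, 10 of its 55426 rows. They were read in mouse retinal organoids, stem cell aggregates steered towards retinal progenitors, by poly(A) RNA sequencing at day 6. Every library came from 1 line, labelled Rx:GFP Mettl3 KO and as carrying a doxycycline-inducible HA-METTL3, and all were differentiated with AGN in the medium. METTL3 is the enzyme that writes N6-methyladenosine (m6A) on RNA. Of the 4 libraries, 2 were untreated and 2 received doxycycline (Dox, 2 µg/ml) for 6 days. Their titles carry the letters EV, which are not spelled out, and the labels do not give the promoter of the inducible copy or say whether the line is a single clone. Since every library carried the same line label, an effect of Dox itself and one of the inducible copy cannot be told apart. Nothing in the labels says that the 2 libraries of a group came from separate cultures, so the p-values measure the spread between these libraries, which may be technical.

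p53 is a transcription factor held low by the ubiquitin ligase MDM2, whose own gene it activates, and it is stabilised by DNA damage and other stress. Its targets divide by what they do to the cell. One set slows division or growth, led by Cdkn1a, which encodes the kinase inhibitor p21, and another opens the way to cell death through the mitochondria or through surface receptors. In the developing nervous system p53 activity is known to remove or arrest damaged progenitors, and some of its targets, Btg2 among them, are also switched on when progenitors turn to making neurons.

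With Dox, 5 of the 10 target genes were lower past the threshold and 0 were higher (7 and 0 at an unadjusted p below 0.05). The threshold was an adjusted p below 0.05 in limma, a linear model fitted to log2(FPKM + 1) of every tested gene. FPKM is a fragment count divided by transcript length and by depth, so it is a level per length, and the fold changes below are on that log2 scale as Dox minus untreated. Of all 13931 tested genes, 4.87% were called lower and 4.44% higher. All 10 fitted fold changes were negative, as were 50.8% of those of all tested genes, and the median was -0.42 beside -0.0042 for all tested genes. In 8 of the 10 genes both Dox libraries lay below both untreated libraries, which held for 26.9% of all tested genes. Among the arrest and growth genes 3 of 4 were called lower, and among the death genes 2 of 5, with medians of -0.70 and -0.34. These medians describe the 2 sets, and their difference was not tested. Counting Ccng1 with Mdm2 as a feedback gene moved the arrest median to -0.91, and counting Trp53inp1 as an arrest gene moved the medians to -0.49 for arrest and -0.42 for death. Leaving out untreated replicate 1 gave 1 gene called lower, leaving out untreated replicate 2 gave 3, and leaving out either Dox replicate gave 2, with 0 higher in each of these fits, and testing genes of any level also gave 2. In bulk RNA, fewer cells of a type and less RNA per cell cannot be told apart.

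**Figure D1:**
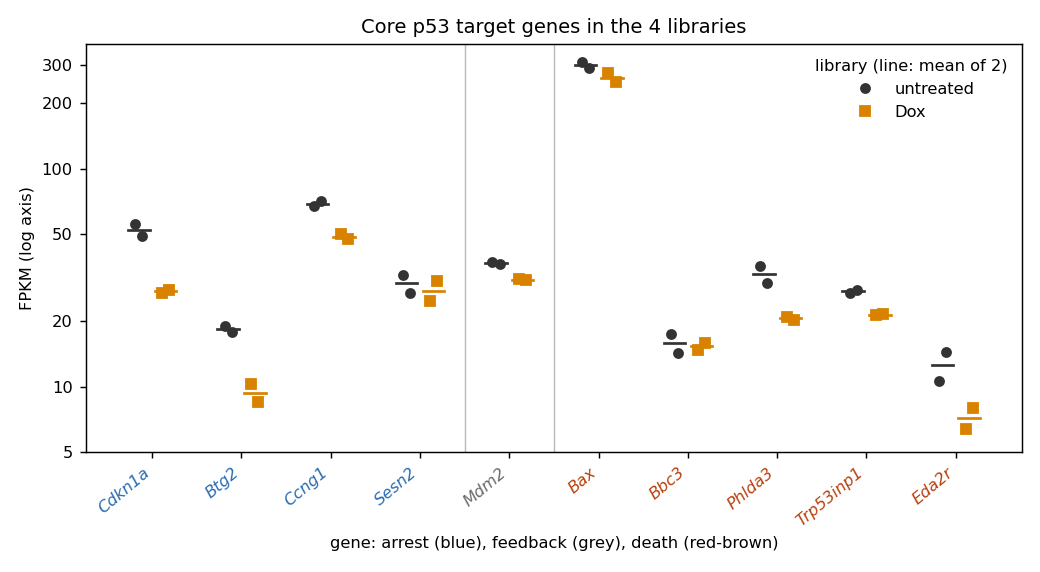
FPKM (log axis) of each p53 target gene in the 2 untreated (circles) and 2 Dox (squares) libraries, with short lines at the group means; names are coloured by role. Only Sesn2 and Bbc3 have overlapping groups, and Bax stands above the other genes at 249.39 to 307.71 FPKM.

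The line was checked on its own genes first. Mettl3 read 40.33 and 37.98 FPKM without Dox, 45.2 and 46.37 FPKM with it (log2 fold change 0.22, limma adjusted p = 0.122). Both Dox values were above both untreated ones, but the rise did not pass. The gene-level value thus shows neither the labelled knockout nor a called induction, and it does not separate that locus from the inducible copy. The labels do not say which part of the gene was removed. Mettl3 also has exons overlapping Tox4, a gene on the opposite strand. The strand setting is not given, and whether Tox4 reads add to these Mettl3 values was not tested. The retinal markers split the groups: 7 of 8 were called higher with Dox, and without it Six6 and Rax did not exceed 0.01 and 1.12 FPKM, while Pax6 (127.76 and 118.86 FPKM), Lhx2 (26.72 and 24.3 FPKM) and Six3 (7.7 and 7.05 FPKM) were detected. Fitted from the steps of low FPKM values, depth was 31500000 to 34000000 fragments per library. For the 5 target genes with a single annotated coding transcript, that depth and the length correction fitted with it give about 700 fragments in the lowest library of Btg2, a counting SD of 3.78%, and more for Phlda3, Sesn2, Trp53inp1 and Ccng1. Fragments were not estimated for the genes with several coding transcripts.

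Cdkn1a (ENSMUSG00000023067, GRCm38 chr17:29090976-29100727, plus strand) encodes p21, the inhibitor of cyclin-dependent kinases through which p53 halts the cell cycle. Its untreated libraries read 56.0 and 49.0 FPKM, its Dox libraries 26.86 and 27.78 FPKM. The Dox libraries lay close together and well under both untreated libraries. The mean fell by 48.0%, from 52.5 ± 4.95 to 27.3 ± 0.651 FPKM (SD, n = 2 each), and the log2 fold change was -0.91 (95% interval -1.13 to -0.70, limma adjusted p = 0.00269). It was called in every fit tried, with adjusted p-values up to 0.0408 when 1 library was left out. Its exons overlap a short unnamed transcript on the opposite strand, AC167363.2, which did not exceed 0.53 FPKM in any library.

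Btg2 (chr1:134075170-134079120, minus strand) encodes an anti-proliferative protein that slows entry into S phase and marks progenitors about to make neurons. Its values were 18.89 and 17.87 FPKM untreated against 10.24 and 8.46 FPKM with Dox. No library of one group reached the range of the other, and the gap between the groups was several times the gap between replicates. Btg2 fell by 49.1%, from 18.4 ± 0.721 to 9.35 ± 1.26 FPKM (SD, n = 2 each), and by 0.91 on the log2 scale (95% interval -1.18 to -0.63, limma adjusted p = 0.00658). Without untreated replicate 1 the adjusted p was 0.0588, at a log2 fold change of -0.87, and it was 0.0590 when genes of any level were tested.

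Ccng1 (chr11:40748552-40755311, minus strand) encodes cyclin G1, which recruits the phosphatase PP2A and acts back on MDM2. The untreated libraries held 67.24 and 70.93 FPKM and the Dox libraries 50.04 and 47.52 FPKM, again without overlap. Ccng1 fell by 0.49 on the log2 scale (95% interval -0.66 to -0.32, limma adjusted p = 0.0110), from 69.1 ± 2.61 to 48.8 ± 1.78 FPKM (SD, n = 2 each). The call rested on having all 4 libraries: leaving out 1 gave adjusted p-values of 0.0675 and 0.103 (untreated replicates 1 and 2) and 0.0573 and 0.0823 (Dox replicates 1 and 2), at log2 fold changes from -0.53 to -0.46.

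Sesn2 (chr4:132492032-132510501, minus strand) encodes sestrin 2, a leucine sensor that restrains the growth kinase mTORC1 under stress. It stood at 32.69 and 26.98 FPKM untreated and at 24.63 and 30.42 FPKM with Dox, so the groups overlapped. The log2 fold change was -0.11 (95% interval -0.46 to 0.23, limma adjusted p = 0.673), an interval that holds both a modest fall and a small rise. Its sign turned without untreated replicate 1 (0.02) and without Dox replicate 1 (0.03).

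Mdm2 (chr10:117688875-117710758, minus strand), the ligase gene that closes the feedback loop on p53, had the tightest replicates of the set in the Dox group. Its level was 37.26 and 36.5 FPKM untreated and 31.03 and 30.91 FPKM with Dox. Both Dox libraries were lower by more than the replicates differed, yet the change did not pass after adjustment (log2 fold change -0.24, 95% interval -0.41 to -0.08, unadjusted p = 0.0106, limma adjusted p = 0.0840). The smallest two-sided p that an exact permutation of 2 against 2 libraries can give is 0.333, so single-gene p-values rest on the variance that limma shares across genes.

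**Figure D2:**
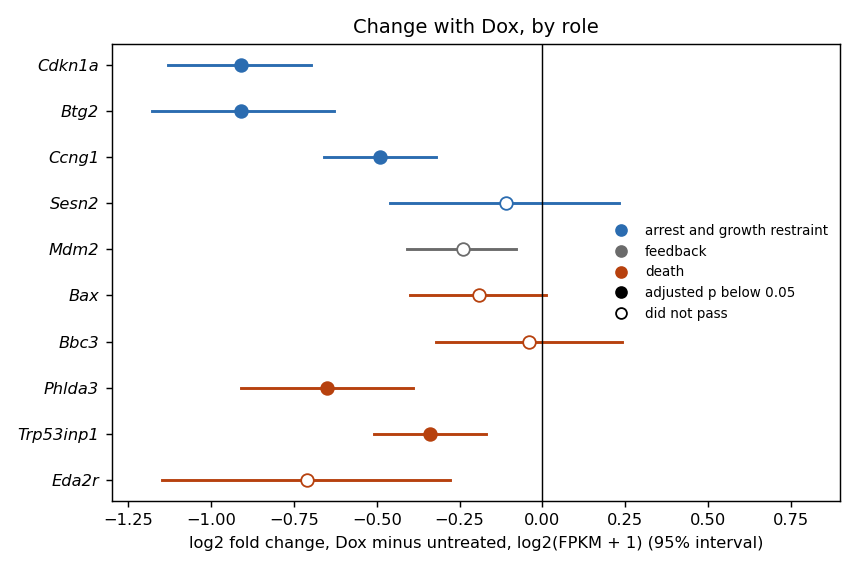
Log2 fold change, Dox minus untreated, on the log2(FPKM + 1) scale for each p53 target gene, with its 95% interval from the limma fit; filled points passed an adjusted p of 0.05. Cdkn1a and Btg2 lie at -0.91, and the intervals of Sesn2, Bax and Bbc3 include 0.

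Of the death genes, Phlda3 and Trp53inp1 passed the threshold, and Eda2r, Bax and Bbc3 did not. Phlda3 (chr1:135766119-135769136, plus strand) encodes a small PH-domain protein that competes with the survival kinase AKT for membrane lipids. It measured 35.91 and 29.86 FPKM untreated and 20.97 and 20.15 FPKM with Dox. The spread was wide between the untreated replicates and narrow between the Dox replicates, and the groups did not overlap. Phlda3 fell by 0.65 on the log2 scale, between means of 32.9 ± 4.28 and 20.6 ± 0.580 FPKM (SD, n = 2 each, 95% interval -0.91 to -0.39, limma adjusted p = 0.0182). With 1 library left out the call held only without untreated replicate 2 (adjusted p = 0.0278). It was 0.0862 without untreated replicate 1, 0.107 without Dox replicate 1 and 0.138 without Dox replicate 2, and 0.100 when genes of any level were tested.

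Trp53inp1 (chr4:11156431-11174379, plus strand) encodes a nuclear protein that promotes the apoptotic phosphorylation of p53 and also takes part in autophagy. The values were 27.0 and 27.66 FPKM untreated and 21.3 and 21.5 FPKM with Dox, with replicates within 1 FPKM of each other in each group. Trp53inp1 fell by 0.34 on the log2 scale (95% interval -0.51 to -0.17, limma adjusted p = 0.0391). This was the weakest of the 5 calls. Rescaling every library to the same sum (TPM) gave an adjusted p of 0.167 at a log2 fold change of -0.32, and 0.0657 and 0.0639 came from leaving out the intensity trend and the filter. With 1 library left out it was 0.194 and 0.245 (untreated replicates 1 and 2) and 0.140 and 0.148 (Dox replicates 1 and 2).

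Eda2r (chrX:97333840-97377216, minus strand) encodes a receptor of the TNF receptor family that binds ectodysplasin A2. It was the lowest gene of the set, at 10.61 and 14.45 FPKM untreated and 6.4 and 8.01 FPKM with Dox. The groups did not overlap, but the standard error, 0.172, was the largest of the set. The log2 fold change of -0.71 was lower than that of Phlda3 and did not pass (95% interval -1.15 to -0.28, limma adjusted p = 0.0673), though it did with robust variances (adjusted p = 0.0466).

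Bax and Bbc3 act at the mitochondrion itself. Bax (chr7:45461697-45466898, minus strand), the pore-forming effector that permeabilises the outer membrane, was the most abundant of the 10 genes per length. Its libraries read 307.71 and 290.0 FPKM untreated and 273.54 and 249.39 FPKM with Dox. The groups did not overlap, but the gap between the nearest libraries was smaller than the gap within either group. The log2 fold change was -0.19 (95% interval -0.40 to 0.01, limma adjusted p = 0.227). Its exons overlap Gm45808 on the same strand, listed at 1.25 to 3.26 FPKM.

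Bbc3 (chr7:16308393-16318205, plus strand) encodes PUMA, a BH3-only protein that frees BAX from its BCL-2 family inhibitors. It stood at 17.36 and 14.31 FPKM untreated and at 14.74 and 15.85 FPKM with Dox, both Dox values lying between the untreated ones. The log2 fold change was -0.04 (95% interval -0.32 to 0.24, limma adjusted p = 0.862). The interval leaves out a fall as large as the -0.91 fitted for Cdkn1a. The sign of this small value turned without untreated replicate 1 (0.09) and without Dox replicate 1 (0.0072).

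**Figure D3:**
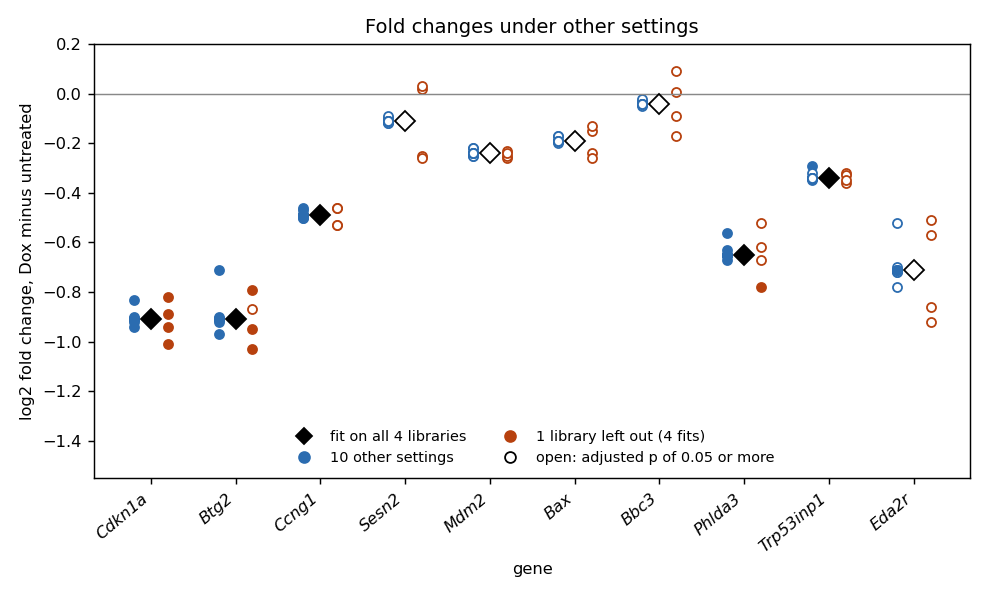
Log2 fold change of each p53 target gene in the fit on all 4 libraries (diamonds), in 10 other settings (left points) and in the 4 fits that leave out 1 library (right points); filled symbols passed an adjusted p of 0.05. Cdkn1a was called in each fit, while the points of Ccng1 and Trp53inp1 are open whenever a library is left out.

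The sequences in front of these genes were searched for the p53 half-site, the 10-base motif of which p53 binding sites hold a pair. RefSeq windows (GRCm38.p6) running from 250 bases before to 50 after a transcription start were read for 9 of the genes, in 12 windows; Trp53inp1 had none. The half-site consensus is its own reverse complement, so 1 scan without mismatches covers both strands. A match lay in 4 of the 12 windows, against 8.36% of all 32851 windows. It lay in 4 of the 9 genes, against 9.55% of the 27025 genes with a window. The 9 genes were chosen as direct p53 targets, so a share above that of all genes is no separate finding. The matches are printed because these are the members whose listed starts carry one, 5′ to 3′ on the strand of the gene. In Cdkn1a the capitals mark the second of 2 matches and the 10 bases after it, and in the other genes the match.
Cdkn1a, chr17:29090896-29090957: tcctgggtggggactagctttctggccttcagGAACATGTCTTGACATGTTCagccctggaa
Ccng1, chr11:40755452-40755481: agacctgcccGGGCAAGCCTtggcactgaa
Mdm2, chr10:117710925-117710954: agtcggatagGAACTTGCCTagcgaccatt
Bax, chr7:45467080-45467109: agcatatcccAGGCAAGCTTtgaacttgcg

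The Cdkn1a stretch lies before the upstream of its 2 RefSeq starts, and its capitals begin 2841 bases before the other start. The 10 bases after the match miss the consensus at 1 letter, and 18 of the 20 capitals equal their own reverse complement. An earlier match in the same window ends 12 bases before the capitals. Exact matches 0 to 13 bases apart, as are this earlier match and the first 10 capitals, were found in 0.073% of all windows. That share does not describe the 20 capitals, whose last 10 bases miss the consensus at 1 letter. Of the 4 genes with a match, Cdkn1a and Ccng1 were called lower while Mdm2 and Bax were not. Of the 5 genes with a window and no match, Btg2 and Phlda3 were called and Sesn2, Bbc3 and Eda2r were not. Sites outside the windows, or with a mismatch, were not searched for. These few genes therefore cannot show whether p53 sites go with the response. A match is a run of letters, and binding was not measured in these libraries.

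Since METTL3 writes m6A, the transcripts were also scanned for GGACT, one spelling of the m6A consensus, on the sense strand of the longest GENCODE M21 coding transcript. The 10 genes had a median of 1.65 GGACT per kilobase, beside 1.05 for the 11628 tested genes with a coding transcript, and 8 of the 10 lay above that median. Among the genes not called, Bbc3 had 2.76 per kilobase, Bax 2.73, Sesn2 2.59, Eda2r 1.47 and Mdm2 0.64. Among the called genes, Cdkn1a had 1.92, Btg2 1.82, Phlda3 1.39, Ccng1 1.14 and Trp53inp1 0.37. Each density rests on 2 to 9 motifs, and a link between density and the calls was not tested. Methylation was not measured in these libraries.

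Of the 10 tested regulators of p53, 1 was higher with Dox and 0 were lower (2 and 1 at an unadjusted p below 0.05), with a median of -0.02. Trp53, the gene for p53, read 61.94 and 56.65 FPKM untreated, 70.11 and 77.51 FPKM with Dox. Both Dox libraries were above both untreated ones, but the log2 fold change of 0.31 did not pass (unadjusted p = 0.0114, limma adjusted p = 0.0886). Mdm4, the p53-binding partner of MDM2, had a log2 fold change of 0.26 (adjusted p = 0.253). The gene called was Cdkn2a, which encodes both ARF, a blocker of MDM2, and the kinase inhibitor p16INK4a, and whose gene-level value does not separate their transcripts. It rose by 0.88 on the log2 scale at a low level, between means of 0.565 ± 0.134 and 1.90 ± 0.438 FPKM (SD, n = 2 each, limma adjusted p = 0.0321), and it was not called when any 1 library was left out. Of the 12 listed regulators, Trp63 and Trp73, the p53 relatives, did not exceed 0.1 FPKM and were not tested.

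Of 12 further p53 targets that act in cell death 10 were tested, 4 were called lower and 0 higher (5 and 0 at an unadjusted p below 0.05), with a median of -0.30 and 9 negative values. Perp, a membrane protein of p53-driven death, fell by 0.87 on the log2 scale, between means of 3.58 ± 0.0919 and 1.52 ± 0.304 FPKM (SD, n = 2 each, limma adjusted p = 0.0169). Trp53i11 fell by 0.79 on the log2 scale and Ei24 by 0.40, with adjusted p-values of 0.00749 and 0.0195. The remaining call was Aen, a p53-induced nuclease gene (-0.38, adjusted p = 0.0463), named after its value was seen. Fas, a death receptor gene, was under the limit of a mean of 1 FPKM, at 1.09 and 0.83 FPKM untreated and 0.28 and 0.17 FPKM with Dox. The number of death targets called lower was 0 without untreated replicate 1 and 1 without any other single library, Perp without Dox replicate 1 and Trp53i11 otherwise.

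Of 20 further arrest, repair and metabolic targets 19 were tested, of which 2 were lower and 1 higher, with a median of -0.14. Ak1, an adenylate kinase gene, fell by 0.55 on the log2 scale (limma adjusted p = 0.0143). The polo-like kinase genes went opposite ways: Plk2 fell from 10.1 ± 0.156 to 6.90 ± 0.354 FPKM (SD, n = 2 each, log2 fold change -0.49, adjusted p = 0.0290), while Plk3 rose from 3.76 ± 0.184 to 7.24 ± 0.247 FPKM (log2 fold change 0.79, adjusted p = 0.00794). Exons of Plk3 overlap Tctex1d4 on the opposite strand, and Plk3 is uncertain if counting ignored strand. Whichever library was left out, 0 genes of this list were called lower, and Plk3 was called only without untreated replicate 2.

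**Figure D4:**
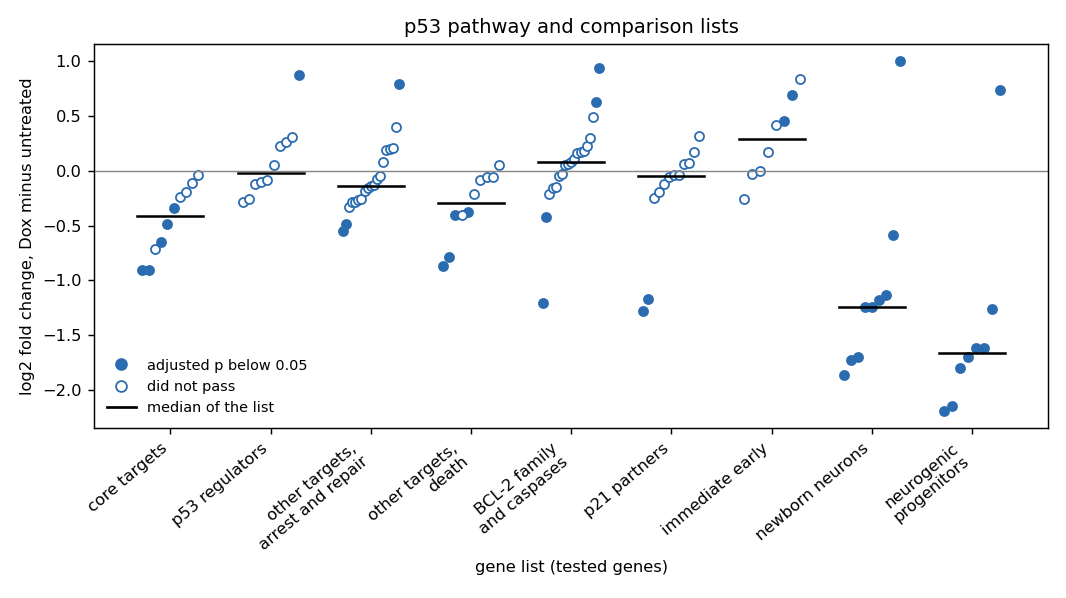
Log2 fold change, Dox minus untreated, of the tested genes of each list (points, filled where the adjusted p was below 0.05), with the list median as a line. The core targets and the other death targets sit mostly below 0, the BCL-2 family and the p21 partners on both sides of 0, and the 2 neuronal marker lists at medians of -1.24 and -1.66.

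The BCL-2 family and the caspases carry out mitochondrial death beside Bax and Bbc3. Of 19 tested genes 2 were higher, 2 were lower and 15 did not pass, with a median of 0.08. Bcl2l11, which encodes the BH3-only protein BIM, rose by 0.94 on the log2 scale, between means of 12.9 ± 0.580 and 25.8 ± 3.20 FPKM (SD, n = 2 each, limma adjusted p = 0.00520). Bmf, another BH3-only gene, fell by 1.21, between means of 39.5 ± 0.170 and 16.5 ± 0.912 FPKM (limma adjusted p = 6.34e-04). The survival gene Bcl2 rose at a low level (0.760 to 1.72 FPKM, adjusted p = 0.0435), and Bok, a BAX relative, fell by 0.42 on the log2 scale (adjusted p = 0.0184). Of the 5 tested caspase genes 0 passed in limma, and 2 had an unadjusted p below 0.05. With any 1 library left out, only Bcl2l11 and Bmf of the list were called.

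The list of p21 partners held cyclin and kinase genes of the complexes that p21 inhibits, Pcna, which p21 also binds, and Rb1 and E2f1, which act downstream of those kinases. Of 12 tested genes 2 were lower and 0 higher (4 and 2 at an unadjusted p below 0.05), with a median of -0.05. Ccnd2, a G1 cyclin gene, fell by 1.17 on the log2 scale, between means of 61.4 ± 7.18 and 26.7 ± 3.42 FPKM (SD, n = 2 each, limma adjusted p = 0.00377), and its partner kinase gene Cdk6 fell by 1.28 on the log2 scale (adjusted p = 0.0163). Exons of both overlap genes on the opposite strand. Without either untreated replicate only Ccnd2 of the list was called.

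Btg2 also belongs to the immediate early response, so those genes were set beside it. Of 8 tested immediate early genes 2 were higher and 0 lower, as also at an unadjusted p below 0.05. The list's median was 0.29, and 0.0017 once untreated replicate 1 was left out. Ier2 rose from 34.5 ± 0.474 to 47.8 ± 0.834 FPKM (SD, n = 2 each, log2 fold change 0.46, limma adjusted p = 0.0109), and Junb had a log2 fold change of 0.69 (adjusted p = 0.0387). Neither was called when any 1 library was left out. Without untreated replicate 2, whose values for Fos and Egr1 were about those of the Dox libraries, these 2 genes were called higher instead (log2 fold changes 1.6 and 0.94, adjusted p = 0.0133 and 0.0363). Both were named after their values were seen, and with all 4 libraries neither passed (adjusted p = 0.358 and 0.515). Exons of Junb overlap Prdx2 on the opposite strand, and Junb is uncertain if counting ignored strand.

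Most tested markers of neurons were also lower with Dox. Of the 9 tested markers of newborn neurons 8 were lower with Dox and 1 higher, and the 12 listed summed to 172.8 and 168.0 FPKM untreated and to 92.0 and 96.0 FPKM with Dox. Tubb3, named after its value was seen, was most of each sum (118.53 and 116.78 FPKM untreated, 75.76 and 79.83 FPKM with Dox). Stmn2 fell by 1.87, Elavl4 by 1.73 and Map2 by 1.70 on the log2 scale, while Syt1 rose by 1.00. Of the 8 tested markers of neurogenic progenitors 7 were lower and 1 higher, and the 10 listed summed to 65.1 and 60.9 FPKM untreated and to 19.1 and 22.7 FPKM with Dox. Gadd45g fell by 2.19, Neurog2 by 2.15 and Neurog1 by 1.80, while Insm1 rose by 0.74. The limma adjusted p-values of the 8 genes given here with a fold change ranged from 3.18e-04 to 0.0419. Syt1 was not called without either Dox replicate, and Insm1 was called in only 1 such fit, that without Dox replicate 1. No marker of either list was at 0 in every library. The part of these cells in the lower Cdkn1a and Btg2 values was not tested.

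Retinal progenitor markers moved the other way, their 8 listed genes summing to 163.6 and 151.4 FPKM untreated and to 891.4 and 1048.1 FPKM with Dox. Most of the untreated sum was Pax6, which was not called (127.76 and 118.86 FPKM untreated, 122.8 and 130.69 FPKM with Dox). The highest fold changes were those of Rax (6.78), Six6 (6.42) and Tbx2 (5.89). Of the 8 tested pluripotency markers 1 was lower and 0 higher (2 and 1 at an unadjusted p below 0.05), Klf4 with a log2 fold change of -0.71 (limma adjusted p = 0.0348, not called when any 1 library was left out), and their sum was 71.5 and 75.2 FPKM untreated and 81.8 and 55.6 FPKM with Dox. Of 6 blood and immune markers Hba-a1 and Hbb-bs were listed at 0 in all 4 libraries, and the sum did not exceed 1.69 FPKM.

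Genes whose values followed Cdkn1a and Btg2 most closely were ranked by Euclidean distance of log2(FPKM + 1), centred per gene over the 4 libraries, among 11426 tested genes with a symbol. Nearest to Cdkn1a were Stmn4 (distance 0.0434), Nkain4 (0.0508) and Mapk8ip2 (0.0510). Stmn4, a neuronal stathmin gene, was at 3.6 and 3.12 FPKM untreated and at 1.28 FPKM in both Dox libraries. In FPKM the mean of Stmn4 fell by 61.9%, of Nkain4 by 59.9% and of Mapk8ip2 by 50.3%, beside 48.0% for Cdkn1a. Adding 1 before the log narrows the changes of low genes, so the nearness holds on that scale only. Nearest to Btg2 were Hspb8 (0.0222), Nid2 (0.0298) and Cdc42ep5 (0.0389). Hspb8, a small heat shock protein gene, was at 12.22 and 11.65 FPKM untreated and at 6.43 and 5.21 FPKM with Dox. With 4 libraries such nearness mostly restates the size of the difference between groups.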

How the data were processed

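Poly(A) RNA of 4 organoid libraries, grouped by the treatment label, was analysed from 1 table. The authors deposited FPKM values per gene and library, rounded to 2 decimals and not pooled. Per the submitters' processing notes STAR, Cuffdiff and the mm10 build were used; roles, versions, annotation and strand setting are not given in the sources used here. On the log2(FPKM + 1) scale, the 13931 genes that averaged 1 FPKM or more were fitted with limma 3.58.1 in R 4.3.3 (eBayes with an intensity trend, no covariate, two-sided, Benjamini-Hochberg adjustment over all tested genes). All 10 p53 targets passed this filter. In simulated libraries for these 13931 genes, limma recovered 97% of 4-fold and 86% of 2-fold changes, and 5.67% of the calls were unchanged genes. The simulation drew independent normal values, with variances from the limma fit itself, and changed 200 genes. The largest fitted change of the 10 targets was 1.89-fold, for Cdkn1a, so recovery of changes as small as theirs was not tested. These shares do not carry over to the calls on the real libraries. Depth was fitted with numpy 2.4.6 on genes with 1 transcript; 90.6% to 91.5% of low values came within 0.2 of a whole fragment, where chance gives 40%.

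Coordinates and exon overlaps are from GENCODE M21 (GRCm38), promoter windows from RefSeq (GRCm38.p6). Exons of Ei24, Bcl2, Map2, Rax, Six3 and Six6 also overlap genes on the opposite strand. Their values are uncertain if counting ignored strand. Genes named are the 10 targets, Trp53, Mdm4, Mettl3, up to 3 called genes with the highest and 3 with the lowest fold change per list, and the 3 nearest in pattern to Cdkn1a and to Btg2. The members, the lists and the tests were chosen with earlier results of these data known. Alternatives tried were the pseudocount, the filter, the scaling, the variance model, the replicate block and leaving out each library.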

Additional observations from a re-analysis of the deposited data

How the results depend on the processing

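Cdkn1a kept its direction and its call in all 14 other fits, and no gene called both here and in another fit changed sign. Over all genes, calls ranged from 745 (no filter) to 1460 (robust variances) with 4 libraries, beside 1297 in the reported fit, and from 593 to 697 with 1 library left out, where the remaining library of a group is assumed to vary like the other group. Fragments behind the values could be estimated for only 5 of the 10 targets, the lowest being Btg2 at about 700, so what depth limits in the other 5 is not known. Where a call was lost, the cause was not tested, except that a floor of 5 FPKM tests fewer genes and leaving out a library uses fewer samples.

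Without a filter on low values Btg2 (-0.91, adjusted p = 0.0590), Phlda3 (-0.65) and Trp53inp1 (-0.34) were not called, 2 of the 10 targets were, and 336 genes were higher and 409 lower. In the lists that setting gave 0 higher regulators of p53, 0 higher and 0 lower arrest or repair targets, 0 lower death targets, 0 higher BCL-2 genes, 0 lower p21 partners, 1 higher immediate early gene (median 0.12), 0 lower pluripotency markers and 0 higher neurogenic markers (median -1.62). A floor of 5 FPKM gave 408 higher and 413 lower genes, 0 higher regulators, 1 higher BCL-2 gene, 1 lower p21 partner, 0 lower pluripotency markers, 2 lower neurogenic markers (median -1.62), and 0 higher and 4 lower neuronal markers (median -1.47).

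A pseudocount of 0.1 gave 1 higher BCL-2 gene and medians of -2.68 for neurogenic, -1.54 for neuronal and 7.73 for retinal markers. A pseudocount of 5 gave medians of -0.29 for the death genes, 0.17 for immediate early genes, -0.62 for neurogenic, -0.70 for neuronal and 3.33 for retinal markers. TPM gave Trp53inp1 -0.32, 1 higher and 1 lower BCL-2 gene, and medians of -0.03 for p21 partners, -1.79 for neurogenic and 5.43 for retinal markers; quantile normalization gave -0.03 and -1.70 for the first 2 of these. Without the intensity trend Trp53inp1 (-0.34) was not called, nor was the higher neurogenic marker (0). Robust variances called Eda2r (-0.71, adjusted p = 0.0466). Counting Ccng1 with Mdm2 gave an arrest median of -0.91, and moving Trp53inp1 to the arrest genes gave -0.49 for arrest and -0.42 for death.

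The replicate numbers were also fitted as a block. Same-numbered libraries did not deviate together (correlation -0.0435), and nothing else pairs them. The block gave 532 higher and 602 lower genes, 1062 of them shared with the 1297, called Eda2r (-0.71, adjusted p = 0.0142) and lost Trp53inp1 (-0.34, adjusted p = 0.120). It left 1 higher and 1 lower BCL-2 gene, 1 lower arrest or repair target and 2 lower death targets.

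With 1 library left out, log2 fold changes ran from -1.03 to -0.79 for Btg2, -0.53 to -0.46 for Ccng1, -0.78 to -0.52 for Phlda3, -0.36 to -0.32 for Trp53inp1, -0.26 to 0.03 for Sesn2 and -0.17 to 0.09 for Bbc3. The last 2 turned sign without untreated replicate 1 (0.02 and 0.09) and without Dox replicate 1 (0.03 and 0.0072). Targets called lower ran from 1 to 3, all genes from 262 to 320 higher and 331 to 377 lower. In the lists the counts were 0 higher regulators, 0 to 1 higher and 0 lower arrest or repair targets (median -0.18 to -0.12), 0 to 1 lower death targets, 1 higher and 1 lower BCL-2 gene, 1 to 2 lower p21 partners (median -0.14 to -0.0031) and 0 to 2 higher immediate early genes (median 0.0017 to 0.31). Among markers they were 0 to 1 higher neurogenic (median -1.73 to -1.59), 0 to 1 higher neuronal and 0 lower pluripotency markers (median -0.27 to 0.21), with a retinal median of 5.03 to 5.34.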
